A study of Mus musculus with 12 samples.

Results

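Copy number at the core genes of the TGF-beta pathway was examined in DNA of 2 primary murine pancreatic ductal adenocarcinoma (PDAC) lines, 15376T and 14837T. The genes are the ligands Tgfb1, Tgfb2 and Tgfb3, the receptors Tgfbr1, Tgfbr2 and Acvr1b, and the signal transducers Smad2, Smad3, Smad4 and Smad7. They were taken by name from the gene column of the deposited segment tables, which hold 22035 gene names in each line, and all 10 were found in either table, each within 1 segment. The lines come from tumors of engineered mice on the C57BL/6 background that carried, among their engineered alleles, a ROSA26 rtTA allele that is released by Cre, p48-Cre and 1 floxed p53 allele (p53 L/+), and they are the wild-type lines of the study in that Lin28b was not deleted. The p48 (Ptf1a) promoter drives Cre in the pancreas, rtTA is a transcriptional activator that acts in the presence of doxycycline, and both lines share all of these alleles. Whole-exome sequencing (WES) was done on 1 library per line, so no value below has a replicate and no test between the lines could be made. The RNA-seq samples and the tail DNA of the series, which counts 12 samples, were not analysed here.

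TGF-beta ligands are secreted in a latent form and, once released, bring together a type II and a type I receptor at the cell surface. The type I receptor then phosphorylates the receptor-regulated Smads, Smad2 and Smad3, which enter the nucleus with the common partner Smad4 and regulate target genes. In the pancreas the pathway restrains growth of normal epithelium, and SMAD4, first named for its deletion in pancreatic cancer, and TGFBR2 are known tumor suppressor genes of human PDAC.

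Bins that lie side by side and have a common coverage form a segment. Its log2 compares that coverage with a reference, and its copy number is a whole number called from log2. The tables also give the depth of reads, the count of bins and the B-allele fraction (BAF), the share of reads at variant sites that carry the other allele. A log2 at or below -0.25 was called as a loss and a log2 above 0.2 as a gain, with 0 exceptions in either line. The tables held 191 segments in 15376T and 235 in 14837T, at a mean autosomal depth of 43.4 and 47.5. In place of a replicate error, the spread of log2 over the autosomal segments at 2 copies was used. Its SD was 0.090 in 15376T (103 segments) and 0.095 in 14837T (96 segments). This gives an SD of 0.131 for a difference between the lines, if the lines are taken as independent. Each segment counted once whatever its number of bins, and only log2 values within the call limits entered. The SD is therefore a yardstick and not the error of a member's segment. Both capture kits named for these libraries, one in the methods and one in the labels, were designed for human exons, and the effect of this on depth was not tested.

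The pathway core was mostly lost in 15376T, and in 14837T it was divided among loss, 2 copies and gain. Of the 10 genes, 7 were called lost in 15376T (Tgfb1, Tgfbr1, Tgfbr2, Smad2, Smad3, Smad4 and Smad7), against 30.0% of the 21129 autosomal genes compared, and 0 were gained, against 9.18%. In 14837T, 5 were lost (Tgfb1, Tgfb2, Smad2, Smad4 and Smad7), against 28.8%, and 2 were gained (Tgfbr1 and Acvr1b), against 21.5%. The genes lost in both lines were 4, namely Tgfb1, Smad2, Smad4 and Smad7, against 22.4% of all autosomal genes. Tgfbr2 and Smad3 were lost in 15376T and at 2 copies in 14837T, a pattern that 6.47% of genes had. Tgfbr1 was lost in 15376T and gained in 14837T, as were 1.21% of genes. In all, 5 of the 10 had a different call in the lines, against 29.4% of genes. The median log2 of the 10 genes was -0.55 in 15376T and -0.17 in 14837T, and that of all autosomal genes was -0.02 and -0.05. Smad2, Smad4 and Smad7 share a segment, so that the 10 genes stand for 8 segments on 7 chromosomes in each line, and the counts are not 10 separate events. A call in a segment covers every gene in it, and no count here is shown to be particular to TGF-beta genes.

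**Figure D1:**
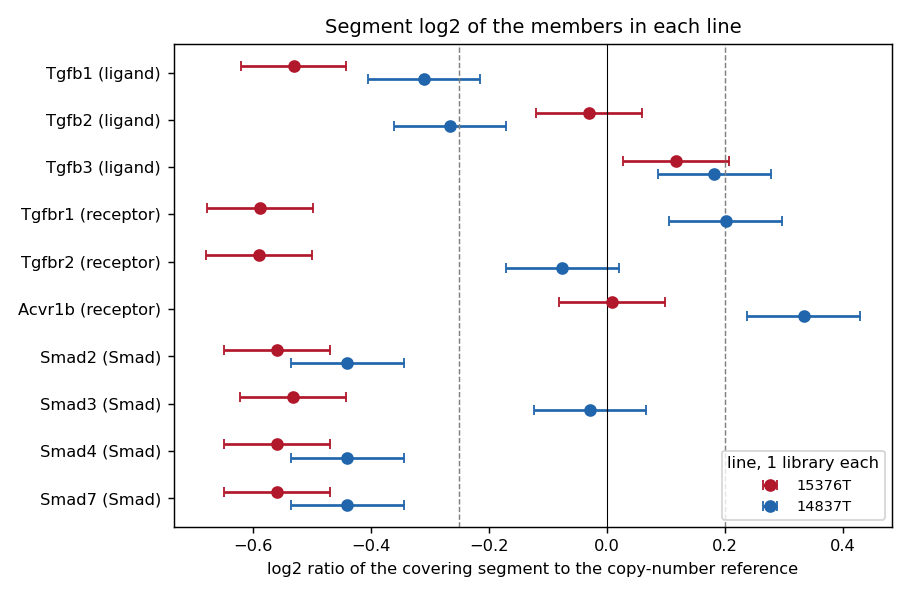
Segment log2 (horizontal axis, ratio to the copy-number reference) of the 10 genes in 15376T (red) and 14837T (blue), with bars of 1 SD of log2 among autosomal segments at 2 copies and dashed lines at the limits of a loss (-0.25) and a gain (0.2). The 7 genes lost in 15376T lie between -0.59 and -0.53, whereas in 14837T the 10 genes are spread from -0.44 to 0.33.

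Tgfbr1, Tgfbr2 and Smad3 are the genes called lost in 15376T but not in 14837T, and the 250 bases before their starts are shown. These stretches lie inside the much longer segments whose calls differ, and no depth of their own was given. They were taken from RefSeq on GRCm38.p6, where a promoter was found for 6 of the 10 genes, and are written 5′ to 3′ on the strand of the gene. Tgfbr1 lies on the plus strand and its stretch is chr4:47352972-47353221. Tgfbr2 and Smad3 lie on the minus strand, with chr9:116175364-116175613 for Tgfbr2 and chr9:63757995-63758244 for Smad3. Capitals mark the GC box GGGCGG or its reverse complement CCGCCC, and the Smad-binding letters CAGAC or their reverse complement GTCTG, searched on both strands.
Tgfbr1: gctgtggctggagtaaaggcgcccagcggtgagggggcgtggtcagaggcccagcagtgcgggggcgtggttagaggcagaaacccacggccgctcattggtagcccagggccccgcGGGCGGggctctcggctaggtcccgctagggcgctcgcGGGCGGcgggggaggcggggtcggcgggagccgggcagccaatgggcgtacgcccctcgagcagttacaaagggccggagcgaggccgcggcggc
Tgfbr2: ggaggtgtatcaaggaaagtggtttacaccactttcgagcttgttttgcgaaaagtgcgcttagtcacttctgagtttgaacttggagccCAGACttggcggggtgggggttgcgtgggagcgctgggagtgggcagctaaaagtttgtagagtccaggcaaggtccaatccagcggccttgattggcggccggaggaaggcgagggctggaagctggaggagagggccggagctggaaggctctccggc
Smad3: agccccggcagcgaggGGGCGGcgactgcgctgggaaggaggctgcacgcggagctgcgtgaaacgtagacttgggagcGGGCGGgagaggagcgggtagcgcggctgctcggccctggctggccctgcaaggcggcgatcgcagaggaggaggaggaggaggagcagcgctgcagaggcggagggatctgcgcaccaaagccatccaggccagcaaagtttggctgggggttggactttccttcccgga
The stretch of Tgfbr1 held 2 GC boxes and that of Smad3 held 2, and neither held CAGAC on either strand. A further RefSeq promoter of Tgfbr1, which starts inside the annotated gene (chr4:47385966-47386215) and is not shown, held 0 GC boxes and 1 CAGAC, 203 bases before its start. The stretch shown for Tgfbr2 held 0 GC boxes and 1 CAGAC, which began 160 bases before the start of the gene. Among 32851 RefSeq promoters cut in the same way, 32.7% held a GC box and 42.2% held CAGAC, and the median GC content was 52.4%. The GC content was 74.8% for Tgfbr1, 69.2% for Smad3 and 58.4% for Tgfbr2. A match of letters describes the sequence and is not evidence of a bound factor.

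Of the ligands, Tgfb1 was lost in both lines, Tgfb2 in 14837T by a narrow margin, and Tgfb3 in neither. Tgfb1 (chr7:25687002-25705077), the ligand best known for restraining immune cells, had a log2 of -0.53 in 15376T and -0.31 in 14837T. These are 69.2% and 80.7% of the reference coverage, and the lines differed by -0.22, or 1.69 times the SD of a difference. In 15376T the gene lay in a segment of 122 Mb and 13453 bins, and both segments of chromosome 7 were lost. In 14837T chromosome 7 was cut into 21 segments, of which 20 were lost, and the 7.50 Mb segment with Tgfb1 had the highest log2 in its run of 3 adjoining lost segments, the lowest of which was at -0.46. Thus the gene was called lost in either line, with a smaller departure from the reference in 14837T.

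Tgfb2 (chr1:186622787-186709697), which encodes the ligand that binds its receptors poorly without the co-receptor betaglycan, had a log2 of -0.03 in 15376T and -0.27 in 14837T. In 15376T its segment of 77.2 Mb was at 2 copies. In 14837T it lay in a segment of 4.03 Mb with 265 bins and 20 gene names, flanked on both sides by segments at 2 copies with a log2 of 0.02 and -0.06. The value passed the limit of a loss by 0.016, which is less than the SD of 0.095, and the difference between the lines of 0.24 was 1.81 times the SD of a difference. The segment also had the highest BAF of all segments with a member, 0.17 against 0.045 in 15376T. Tgfb3 (chr12:86056743-86079041), the ligand known for its role in palate fusion, was at 2 copies in both lines with a log2 of 0.12 and 0.18. Its value in 14837T was 0.017 below the limit of a gain, and the difference of -0.07 was smaller than the SD of a difference.

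All 3 receptors had a different call in the lines, as had 1 of 3 ligands and 1 of 4 Smads, beside the 29.4% of all autosomal genes, and a difference between roles was not tested. Tgfbr1 (chr4:47353222-47414926), the type I receptor that phosphorylates Smad2 and Smad3, had a log2 of -0.59 in 15376T and 0.20 in 14837T. This is 66.5% of the reference coverage against 115%. The difference of -0.79 was 6.02 times the SD of a difference, and 98.5% of autosomal genes had a smaller one. In 15376T the whole of chromosome 4, in 4 segments, was called lost, and Tgfbr1 lay 44.2 Mb and 98.7 Mb inside the borders of a segment of 143 Mb. In 14837T 72.3% of the segmented length of the same chromosome was lost as well, but not the stretch around Tgfbr1. There the gene lay in a segment of 5.83 Mb with 589 bins and 61 gene names, next to a segment at 3 copies with a log2 of 0.33 on its left and a segment at 2 copies with a log2 of -0.09 on its right. The nearest lost segments of 14837T were 26.1 Mb to the left and 15.8 Mb to the right of the gene. The gain itself rested on a log2 of 0.2016, which is 0.0016 above the limit, so that Tgfbr1 was not lost in 14837T by a wide margin but was called gained by a narrow one.

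Tgfbr2 (chr9:116087695-116175363), the type II receptor that binds the ligand first, had a log2 of -0.59 in 15376T and -0.08 in 14837T. The segments had nearly the same extent, 13.6 Mb each to the last segment of the chromosome, with 1583 bins in 15376T and 1601 in 14837T. The coverage was 66.5% of the reference in 15376T and 94.9% in 14837T, and the difference of -0.51 was 3.92 times the SD of a difference, larger than in 94.0% of genes. Acvr1b (chr15:101174072-101213684), the type I receptor for activins and Nodal that also phosphorylates Smad2 and Smad3, had a log2 of 0.01 in 15376T and 0.33 in 14837T. Its gain covered 9.55 Mb and 1876 bins, and began next to a segment at 2 copies with a log2 of 0.03. The difference of -0.33 was 2.48 times the SD of a difference. In 15376T the gene was at 2 copies, 0.871 Mb from the start of a short segment at 1 copy with 51 bins and a log2 of -0.39.

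Among the Smads, Smad3 differed between the lines and the remaining 3 did not differ in call. Smad3 (chr9:63646766-63757994), a receptor-regulated Smad that binds DNA directly, had a log2 of -0.53 in 15376T and -0.03 in 14837T. The difference of -0.50 was 3.84 times the SD of a difference and larger than in 92.4% of genes. Smad3 and Tgfbr2 lay in different segments of the same run of loss in 15376T. This run held 6 adjoining segments over 70.7 Mb to the last base segmented on chromosome 9, with log2 from -1.11 to -0.46, and began 10.2 Mb before Smad3, after a segment at 2 copies with a log2 of -0.06. In 14837T 1.89% of the segmented length of chromosome 9 was lost and 20.6% gained, and neither gene lay in those stretches. Smad3 and Tgfbr2 thus lay in 1 uninterrupted stretch of loss in 15376T. The stretch also held a segment called at 0 copies that covers neither gene. The lowest log2 of the stretch was -1.11, so reads remained in all of its segments, and a deletion of both copies is not shown.

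Smad4, Smad7 and Smad2 lay in a single segment of chromosome 18 whose borders were identical in 15376T and 14837T (chr18:56086410-90540246, 34.5 Mb, 2263 bins, 203 gene names). Smad4 (chr18:73634790-73703791) is the common partner of the receptor-regulated Smads, Smad7 (chr18:75367365-75395935) the inhibitor that targets the type I receptor, and Smad2 (chr18:76241090-76311748) a receptor-regulated Smad. They shared a log2 of -0.56 in 15376T and -0.44 in 14837T, which is 67.8% and 73.7% of the reference coverage. Both values were called as losses, and the difference of -0.12 was 0.916 times the SD of a difference, that is, within the spread of segments. Mediators and an inhibitor of the same pathway were therefore called lost together in either line. The lines differed elsewhere on the chromosome, of which 99.9% of the segmented length was lost in 15376T and 64.3% in 14837T. In the run of loss with these genes, log2 lay between -0.56 and -0.54 over 2 segments in 15376T and between -0.53 and -0.32 over 4 segments in 14837T.

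**Figure D2:**
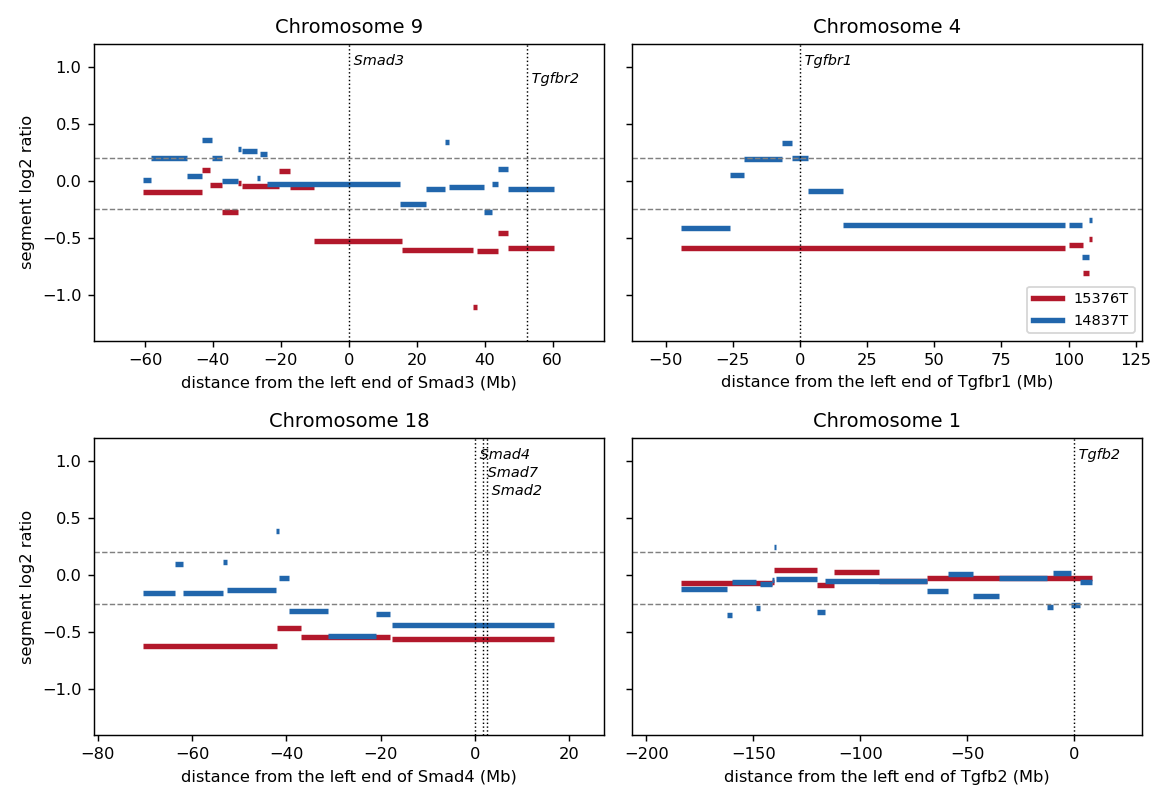
Segment log2 (vertical axis) along 4 chromosomes in 15376T (red) and 14837T (blue), against the distance in Mb from the left end of the named gene, with dotted lines at the members and dashed lines at the limits of a loss and a gain. Around Smad3 and Tgfbr2 the lines separate by about the same amount (-0.50 and -0.51), Tgfbr1 lies in the stretch of chromosome 4 where 14837T is not lost, the 3 Smads of chromosome 18 lie in a loss of both lines, and Tgfb2 lies in a short segment of 14837T just past the limit.

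Within 15376T the 7 lost genes could not be placed in order. Their log2 values ran from -0.59 for Tgfbr2 and Tgfbr1 to -0.53 for Tgfb1, a spread of 0.058, whereas a gap between 2 segments of this line has an SD of 0.127. The median over lost segments of the line was -0.53. A gap of 0.50 separated them from Tgfb2, Acvr1b and Tgfb3, and Tgfb3 stood 0.11 above Acvr1b, within the spread. Within 14837T, where a gap has an SD of 0.135, 2 gaps were wider than that. One, of 0.19, lay between Tgfb2 and Tgfbr2, with the Smads of chromosome 18, Tgfb1 and Tgfb2 below it and Tgfbr2 and Smad3 above. The other, of 0.21, lay between Smad3 and Tgfb3, with Tgfb3, Tgfbr1 and Acvr1b above it. Tgfb3 and Tgfbr1 were 0.019 apart but on different sides of the limit of a gain. The Smads of chromosome 18 were lowest, 0.13 below Tgfb1, and Acvr1b was highest, 0.13 above Tgfbr1, and neither gap passed the spread. The losses of 14837T, at -0.44 to -0.27, were shallower than those of 15376T, as was the median of all lost segments in the line (-0.39 against -0.53). The number of copies lost and the share of cells that carry a loss cannot be told apart from log2 alone. At an absolute log2 of at least 0.5, all 7 losses of 15376T remained and 0 of those of 14837T, where 27.8% and 3.09% of all autosomal genes passed. The genes with a different call were then 7 in place of 5, and included all 4 Smads, Tgfb1, Tgfbr1 and Tgfbr2 but not Acvr1b. The share of all autosomal genes with a different call at this limit was not computed. Smad2, Smad4 and Smad7 entered the count although their difference of -0.12 was 0.916 times the SD of a difference. The count at this limit is therefore not read as a result about the members or their roles. At 0.3, Tgfb2 was not counted as lost and Tgfbr1 not as gained in 14837T.

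The read depth of the segments, from which log2 is made, gives the same comparison in reads and is not a separate measurement. Depth was 29.8 in 15376T and 52.9 in 14837T for the segment of Tgfbr1, and 30.0 and 45.4 for that of Tgfbr2. It was 33.5 and 49.1 for that of Smad3. Segments at 2 copies had a mean depth of 46.0 and 47.5. The segments of Tgfbr1, Tgfbr2 and Smad3 thus stood well below that mean in 15376T, and near or above it in 14837T. Scaled to the 2-copy segments, the log2 depth ratio of 15376T to 14837T was -0.79 for Tgfbr1, -0.55 for Tgfbr2, -0.51 for Smad3 and -0.39 for Acvr1b. For Tgfb2 it was 0.35, for Tgfb1 -0.20, for the Smads of chromosome 18 -0.15 and for Tgfb3 -0.07. The segments of a gene were of unequal extent in the lines except on chromosome 18. BAF lay between 0.045 and 0.098 for the members in 15376T and between 0.032 and 0.17 in 14837T, beside autosomal medians of 0.077 and 0.061, and Tgfb2 in 14837T was the only member above 0.1. The number of variant sites behind a BAF was not given in the tables.

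The gene tables list a gene's own depth only where the absolute log2 of its segment is about 0.40 or more, which holds for the 7 lost genes of 15376T and for the 3 Smads of chromosome 18 in 14837T. In 15376T, Tgfbr1 had an own depth of 33.3 over 10 bins, at the median (33.5) of 748 listed genes of its segment with at least 5 bins. Tgfb1 had 26.9 over 7 bins and Tgfbr2 26.0 over 10 bins, at the 24.7th percentile of 874 and the 22.1st percentile of 95 such genes. Smad3 had 20.5 over 11 bins, below the 10th percentile of its segment (24.1) and lower than the other members, at the 3.43rd percentile of 204 genes with a median of 35.5. Its own depth in 14837T was not listed, so whether its low depth is particular to 15376T or to the capture of the gene cannot be told apart.

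Own depths in both lines were given for Smad4 (30.6 in 15376T and 37.9 in 14837T), Smad7 (32.4 and 40.1) and Smad2 (39.1 and 47.7). The order of the genes was the same in the lines, with Smad4 lowest and Smad2 highest, and all were within the range from the 10th to the 90th percentile of the 132 listed genes of the segment. Scaled to 2-copy segments, the own depth ratio of 15376T to 14837T was -0.26 for Smad4, -0.26 for Smad7 and -0.24 for Smad2 on the log2 scale, lower than the segment difference of -0.12. The deviation of -0.14, -0.14 and -0.12 was within the spread of this quantity over 1985 genes listed in both tables, which had a mean of -0.05 and an SD of 0.148. None of the 3 genes therefore stood apart from its segment in either line.

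**Figure D3:**
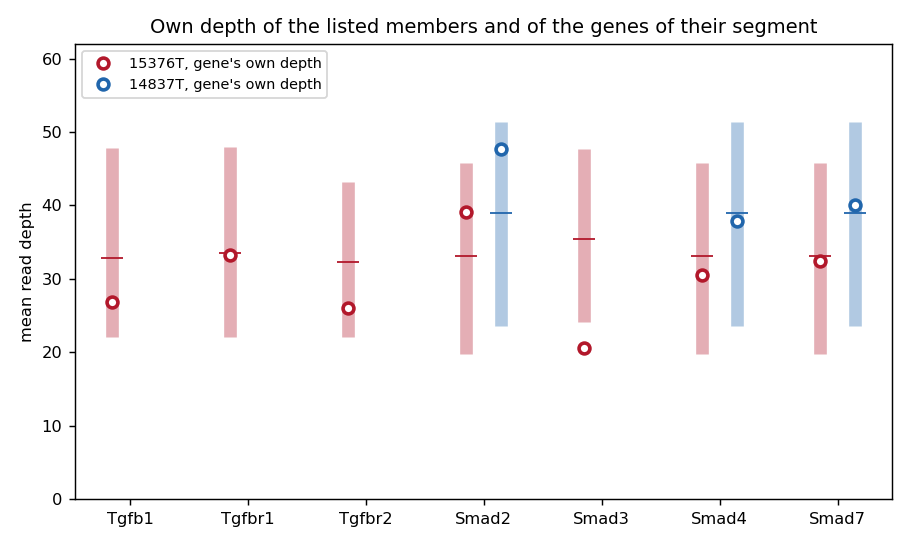
Mean read depth (vertical axis, starting at 0) of each listed member (open circles) in 15376T (red) and 14837T (blue), with bars from the 10th to the 90th percentile and a dash at the median of the listed genes of the same segment. Smad3 in 15376T, at 20.5, is the only member outside its bar.

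The calls of the members were next set beside 82 other genes of the TGF-beta superfamily and its regulators, of which 81 lie on autosomes. Of these, 22 (27.2%) were lost and 6 (7.41%) gained in 15376T, and 25 (30.9%) were lost and 12 (14.8%) gained in 14837T, beside 30.0% and 9.18% of all autosomal genes in 15376T and 28.8% and 21.5% in 14837T. The call differed between the lines in 24 (29.6%). The median log2 was -0.02 in 15376T and -0.06 in 14837T, so the wider family did not share the low median of the members in 15376T. This contrast was not tested. The members and the list were chosen with earlier results of these data known, and Smad2, Smad4 and Smad7 enter the median of the members from a shared segment. Bmp15, an oocyte ligand on the X chromosome, had a log2 of -0.17 and -0.07 and was called at 2 copies in both lines. This call is relative to a reference that is not given, so the number of X copies is not shown.

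Several genes of the list were carried by the segments of members. Acvr2b, an activin type II receptor, and Tdgf1, a co-receptor for Nodal, lay in the segment of Tgfbr2 in each line and had its loss in 15376T (-0.59) and its 2 copies in 14837T (-0.08). Smad6, an inhibitory Smad, Bmp5, a BMP ligand, and Cd109, a TGF-beta co-receptor, lay in the segment of Smad3 (-0.53 and -0.03). In 14837T a border fell inside Cd109, with 88.3 kb in that segment and 11.3 kb in the next one, also at 2 copies (-0.21). Acvrl1, a type I receptor of endothelial cells, shared the segment of Acvr1b (0.01 and 0.33). Nedd4l, a ubiquitin ligase for activated Smads, shared the loss of Smad2, Smad4 and Smad7 in both lines, Ltbp4 that of Tgfb1, and Ltbp2 the 2 copies of Tgfb3. The last 2 encode latent TGF-beta binding proteins.

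By role, 3 of 5 co-receptors were lost in 15376T (Cd109, Tdgf1 and Bambi, a decoy receptor at -0.62, which was the lowest log2 of the list) and 0 in 14837T, where Bambi was at -0.15, beside 30.0% and 28.8% of all autosomal genes. Of the antagonists, 1 of 6 was lost in 15376T and 4 of 6 in 14837T, beside the same shares, and the difference was not tested. At an absolute log2 of at least 0.5, 0 genes of the list were lost in 14837T, beside 3.09% of all autosomal genes. Among the antagonists, Fst and Fstl3, which trap activins, were at -0.03 and 0.01 in 15376T and at -0.38 each in 14837T. Dcn, a proteoglycan that binds TGF-beta, was at -0.00033 and -0.37. Smad5, a Smad of bone morphogenetic protein (BMP) signaling, lay on chromosome 13 with Bmp6, a BMP ligand, and Tgfbi, a TGF-beta target gene. All 3 had a log2 of -0.04 in 15376T and -0.47 in 14837T, with a BAF of 0.294 and 0.676, above the autosomal medians of both lines.

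The remaining genes with a different call came from several roles. Inhbc and Inhbe, inhibin beta subunits, were at 0.12 in 15376T and -0.38 in 14837T, and Amh, the anti-Mullerian hormone, at 0.01 and -0.38. Usp15, a deubiquitinase of the type I receptor, was at -0.04 and -0.38. Genes gained in 14837T alone were Amhr2, the receptor for Amh (0.01 and 0.33), Ltbp1 and the corepressor Tgif1 (0.01 and 0.28 each), the ubiquitin ligase Smurf1 (0.09 and 0.32) and the cell cycle inhibitor Cdkn1a (0.07 and 0.34). Gdf3, a Nodal-related ligand, was gained in 15376T alone (0.33 and -0.05). Gdf7, another BMP ligand, was the only other gene of the list with opposite calls, at -0.42 in 15376T and 0.20 in 14837T.

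The highest log2 of the list was that of Skil in 15376T, a corepressor of the Smads, at 0.74 (4 copies) against 0.43 (3 copies) in 14837T. In 14837T it was that of Trim33, a ubiquitin ligase for Smad4, at 0.60 against 0.51. The lowest of 14837T, -0.50, was shared by Gdf2, Gdf10 and Bmpr1a, at -0.59 in 15376T. For Tgfbr3, which encodes the co-receptor betaglycan, a border fell inside the gene in 14837T, with 47.9 kb in a segment at 1 copy (-0.36) and 135 kb in a segment at 2 copies (-0.08).

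**Figure D4:**
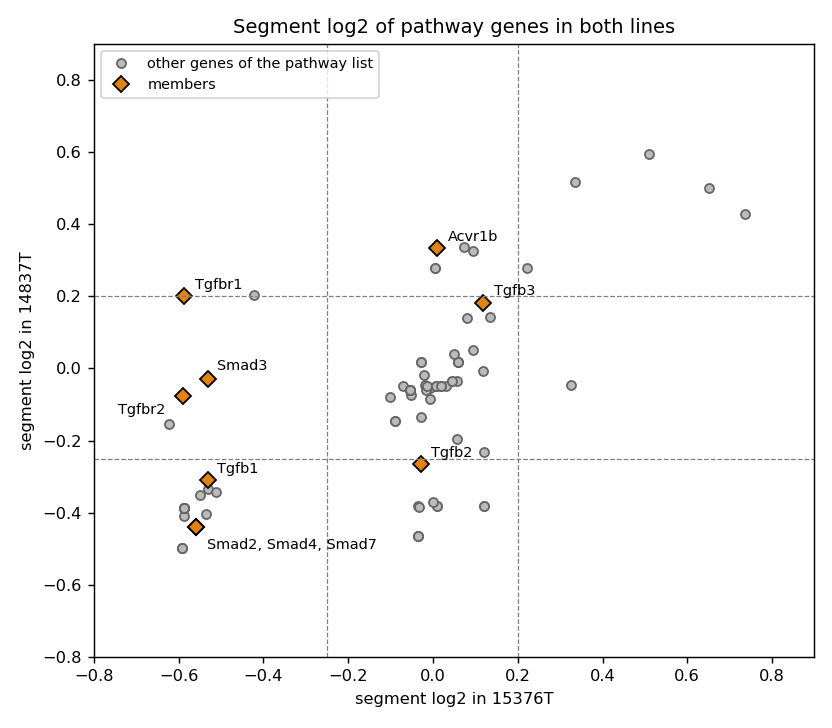
Segment log2 in 15376T (horizontal axis) and in 14837T (vertical axis) of the 10 members (orange diamonds) and of 81 other autosomal genes of the pathway list (grey circles), with dashed lines at the limits of a loss and a gain in each line. Tgfbr1, Tgfbr2 and Smad3 lie left of the loss limit but not below it, Tgfb1 and the Smads of chromosome 18 lie in the corner of genes lost in both lines, and 1 further gene of the list, Gdf7, lies beside Tgfbr1.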

How the data were processed

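WES was performed on DNA of the PDAC lines 15376T and 14837T, 1 library each, at a mean autosomal depth of 43.4 and 47.5. For each line the authors deposited segments and, separately, genes in segments with a large log2. The deposited log2 compares coverage with that of a reference. The aligner, the reference and the segmentation settings are not given in the sources used here. The BAF deposited is a fraction from 0 to 1. The read depth deposited is a coverage signal without normalization.

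Copy numbers under 2 were counted as lost and over 2 as gained, as called by the authors. A gene was given the segment that lists its name, and where several did, the one with the largest overlap with its RefSeq position on GRCm38.p6. Segment and gene starts were written counting from 1. Own depths were set beside listed genes of the same segment with at least 5 bins. With 1 library per line, no test was made and no p-value is given. Of the pathway list, genes with a different call, with the highest or lowest log2 of a line, or in the segment of a member were named, and Bmp15 and Tgfbr3, named for their X linkage and the border inside, were added after their values were seen. The members and lists were chosen with earlier results of these data known. Alternatives were limits of 0.3 and 0.5 on absolute log2, recentring on the autosomal median, assignment by position, and depth ratios in place of log2. The assignment of genes to segments and the call limits were tested on simulated segments. Their log2 values lay well away from the limits, so this does not bear on members close to a limit. Python 3.11.15, numpy 2.4.6, pandas 2.3.3 and matplotlib 3.10.9 were used. The RNA-seq samples and tail DNA were not analysed here, and 1 engineered allele of the mice is not reported here.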

Additional observations from a re-analysis of the deposited data

Results flagged for a closer look

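Tgfbr1 and Gdf7 were called lost in 15376T and gained in 14837T, so that the lines lay on opposite sides of 2 copies. The difference in log2, 15376T minus 14837T, was -0.79 for Tgfbr1 and -0.63 for Gdf7. It was not tested, since each line has 1 library. Both gains in 14837T were close to the limit of 0.2, at 0.2016 for Tgfbr1 and 0.2028 for Gdf7, and neither was a gain at an absolute log2 of at least 0.3.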

How the results depend on the processing

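Calls in 15376T held for all 7 lost members at an absolute log2 of at least 0.3 or 0.5 and after recentring on the autosomal median. Those in 14837T depended on the limit. The members lost there were 5 as deposited and 0 at 0.5, beside 28.8% and 3.09% of all autosomal genes. Those gained were 2 as deposited, 1 at 0.3 and 0 at 0.5, beside 21.5%, 17.4% and 4.30%. Members with a different call were 5 as deposited, beside 29.4% of all autosomal genes, and 4 at 0.3, 7 at 0.5 and 5 after recentring. The share of all genes was not computed for these other settings. The 5 after recentring were not the same genes, since Tgfb3 took the place of Tgfb2. Of the 81 autosomal genes of the pathway list, 0 were lost in 14837T at 0.5, beside 3.09% of all autosomal genes. At that limit 3 were gained in 15376T and 3 in 14837T, beside 2.55% and 4.30%. Recentring put Tgfb2 in 14837T at -0.22, within 2 copies, and Tgfb3 at 0.23, a gain. Assigning segments by RefSeq position gave the same log2 for all 20 values, and the ratio of segment depths moved each of the 10 differences by less than the SD of a difference. The ratio of own depths, available for Smad2, Smad4 and Smad7 alone, moved all of them in the same direction. Smad4 and Smad7 went from -0.12 to -0.26 each and Smad2 from -0.12 to -0.24. No paired analysis was possible because a single library stands for each line. Neither the spread between bins nor the count of variants behind a BAF was given, which limits how precisely any segment is known.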
